A study of Mus musculus with 4 samples.

Results

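Cells of the mouse neural stem cell (NSC) line KN1 were divided by whether a transcript of *Sp8* had been captured in them. The 560 *Sp8* cells were chosen by an *Sp8* value above 0 in the normalized table of KN1, and the remaining 3415 of its 3975 cells, with a value of 0, were the other cells of the comparison. The authors normalized cells selected at random from each library, so that this table need not hold all cells of the KN1 library. The normalized tables of the 4 lines of the series (XN4, XN1, KN1, and CN4) held 15255 cells in all. KN1 is a line derived from 129/Sv epiblast stem cells (EpiSCs), kept in a serum-free medium with EGF and FGF2 at 10 ng/ml each and with neither the Wnt antagonist XAV939 nor the Wnt agonist CHIR99021. XN4 and XN1 were grown with 10 µM XAV939 and CN4 with 2 µM CHIR99021 beside the same growth factors. Each line was 1 BD Rhapsody library, in which single cells are captured in microwells with barcoded beads. There was thus no replicate of KN1, and the values below describe 1 library of 1 line, with no test. All intervals are exact (Clopper-Pearson) 95% binomial intervals of a share and cover counting error only. The interval of a ratio is that of the observed share divided by the other or predicted share, which is taken as fixed. It leaves out the counting error of that second share and is thus narrower than an interval of the ratio itself.

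*Sp8* encodes a zinc finger transcription factor of the Sp family. In the embryo it acts in patterning of the telencephalon around its rostral FGF source, at the midbrain-hindbrain boundary, in the apical ectodermal ridge of the limb, and in posterior growth of the trunk, and it also marks neuroblasts of the lateral and caudal ganglionic eminences and some spinal interneurons. Its transcript is regulated by FGF and Wnt signals in several of these tissues. A cell with an *Sp8* read might therefore be asked for its anteroposterior position, read here from *Hox* genes and brain region genes, and for its dorsoventral position, read from genes such as *Pax6*, *Olig2*, and *Gli3*. The authors describe the dorsoventral identities of their lines as ambiguous. The names dorsal, intermediate, and ventral thus give the place of a gene in the neural tube and not a position of KN1 cells.

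Once cells of like depth were compared, the *Sp8* cells held *Hox* genes of the hindbrain, cervical, and thoracic classes, *Olig1*, *Olig2*, and *Pax6* at shares close to those of other cells, with ratios to other cells of the same number of reads between 0.861 and 1.255 for the 15 region genes read in at least 5% of cells. Of these 15 ratios, 13 were above 1, against 57.8% of all genes. Among the less often captured region genes, *Hoxb7* had a ratio of 1.70 (interval 1.20 to 2.33). Counted per cell, no *Hox* gene was read in 23.9% of *Sp8* cells (20.5 to 27.7%). The share was 30.01% in other cells of like reads and 29.1% in other cells with a like number of genes. A *Hox* gene together with *Olig1* or *Olig2* was read in 45.7% (41.5 to 49.9%), against 38.1% and 39.7%. Outside the region genes, *Gja1* (ratio 1.57, interval 1.27 to 1.92) and *Sp3* (1.42, 1.13 to 1.76) were captured more often and *Kcnq1ot1* (0.25, 0.10 to 0.51) less often in *Sp8* cells. *Kcnq1ot1* was read in 3.75% of KN1 cells, fewer than the 5% asked of the genes compared. These genes stood out among the members of 25 gene lists, which their single-gene intervals do not take into account.

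The gene lies on chromosome 12 at chr12:118846329-118852576 of the GRCm38 genome, on the plus strand, and no other gene of GENCODE release M21 overlaps it. Its reads can thus not be shared with an overlapping gene of that annotation. The normalized value of a cell was ln(1 + 10000 × reads/total), with ribosomal protein and mitochondrial genes left out, and these values were turned back into reads.

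*Sp8* was read in 14.1% of the KN1 cells (560 of 3975, interval 13.0 to 15.2%). Just inside the threshold lay 98 cells with 1 *Sp8* read, whose normalized values ran from 0.359 to 1.72. Just outside it, every cell had the value 0. The other 462 cells held 2 or more reads, with a median of 6 and a highest of 33, so that 11.6% of KN1 cells (10.6 to 12.7%) had at least 2 *Sp8* reads. Over all 560 cells the lowest normalized value was 0.359, the median 1.93, and the highest 4.84. The median of 5 *Sp8* reads per *Sp8* cell was like that of other transcription factor genes in the cells that had them, 5 for *Hoxa5* and for *Hoxa7*, 4 for *Pax6*, and 6 for *Olig2*. These reads are amplified copies and not molecules, so that several reads of *Sp8* in a cell may come from 1 transcript.

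The normalized tables of the other 3 lines do not list *Sp8*. In their tables of all reads, *Sp8* was found in 5 of the 8741 cells in XN4 (0.0572%, interval 0.0186 to 0.133%), 2 of the 14452 cells in XN1 (0.0138%, interval 0.00168 to 0.04998%), and 2 of the 18157 cells in CN4 (0.0110%, interval 0.00133 to 0.0398%). Each of these cells had 1 read. The median reads per cell were 12615 in XN4, 5981.5 in XN1, and 9173 in CN4, against 5862 in the KN1 table. The KN1 cells had fewer genes for these reads, with a median of 833 genes per cell against 2665, 2379, and 3095 in XN4, XN1, and CN4. The KN1 values are from its normalized table, which leaves out ribosomal protein and mitochondrial genes. In the normalized tables of XN4, XN1, and CN4 the medians were 7796, 4637, and 6572 reads and 2479, 2257, and 2824 genes. By either set of values, reads do not measure depth alike in KN1 and the other lines. None of the 9 cells carried a cell index that also occurred in KN1. Of the 3975 KN1 cells, 197 had an index that also occurred in the table of all reads of another line, and 33 of these were *Sp8* cells. With 1 library a line, the line and its library cannot be told apart. No other line reached the 50 *Sp8* cells needed to compare *Sp8* cells with other cells in it.

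*Sp8* capture followed the depth of the cell. When the KN1 cells were ordered by their reads outside *Sp8* and divided into 20 strata, the *Sp8* share was 5.53% (11 of 199 cells, interval 2.79 to 9.68%) in the stratum with a median of 2008 reads and 38.4% (76 of 198 cells, 31.6 to 45.5%) in that with a median of 18413 reads. When the cells were divided into 4 equal parts by reads, from the part with the fewest reads to that with the most, the *Sp8* share was 7.44% and 25.7%, a 3.45-fold difference. The same comparison gave 3.26-fold for *Hoxa5*, 2.72-fold for *Hoxb8*, 3.48-fold for *Ptch1*, and 4.40-fold for *Pax6*, and 3.58-fold for the Sp family gene *Sp1*. *Malat1*, a nuclear RNA found in nearly every cell, had 1.01-fold. An *Sp8* cell was therefore on average a more deeply read cell, with a median of 7967.5 reads and 1096.5 genes against 5616 reads and 805 genes in the other cells.

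**Figure D1:**
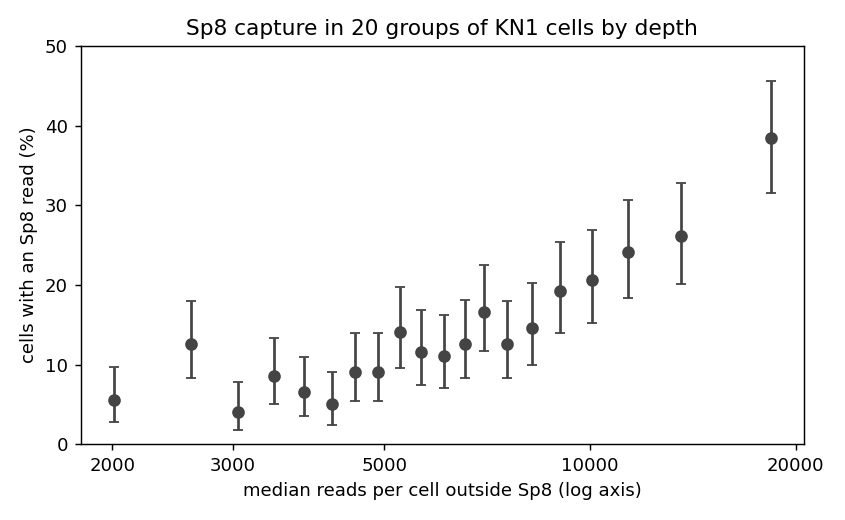
Share of KN1 cells with an Sp8 read (vertical axis, percent) in 20 strata of cells against the median number of reads per cell outside Sp8 (log axis); bars are exact 95% binomial intervals. The share runs from 5.53% in the lowest stratum to 38.4% in the highest.

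For this reason, all comparisons were made at like depth, in 3 ways. In one, the *Sp8* reads were removed and each cell was thinned to 3200 reads, which left 517 *Sp8* cells and 2878 other cells. Thinning did not make the number of genes alike, since the median was 897 genes in *Sp8* cells and 747 in other cells. In another, the share of *Sp8* cells with a gene was compared with that of the other cells of the same 20 strata of reads. In the last, the same was done with 20 strata of genes detected. The mean number of genes was 1200 in *Sp8* cells and 1174 in other cells of the same read strata. The ratio of the share in *Sp8* cells to that in other cells had a median over 5585 genes, those read in at least 5% of KN1 cells, of 1.18 after thinning, 1.02 in read strata, and 1.00 in strata of genes detected. Without any correction it was 1.36. Ratios after thinning are thus to be read against 1.18 and those in strata against 1.

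A ratio of at most 0.8 was taken as lower and a ratio of at least its inverse, 5/4, as higher, and this is the fold limit used throughout. With it, thinning gave 1977 higher genes (35.4%) and 77 lower genes (1.38%). In read strata 313 genes were higher (5.60%) and 193 lower (3.46%), and in strata of genes detected 215 were higher (3.85%) and 250 lower (4.48%). Most of these genes were rarely captured. Among the 4563 genes read in 5 to 20% of cells, 39.3% were higher and 1.69% lower after thinning, and 6.79% were higher and 4.21% lower in read strata. Among the 917 genes read in 20 to 50% of cells, 20.3% were higher and 0% lower after thinning, while in read strata 0.327% were higher and 0.109% lower, that is, 3 genes and 1 gene. Among the 105 genes read in over 50% of cells, 0% were higher and 0% lower by either way. A total of 193 genes were higher and 42 lower by all 3 ways. Since the median ratio after thinning was 1.18, a higher call by all 3 ways was easier to reach than a lower one.

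**Figure D2:**
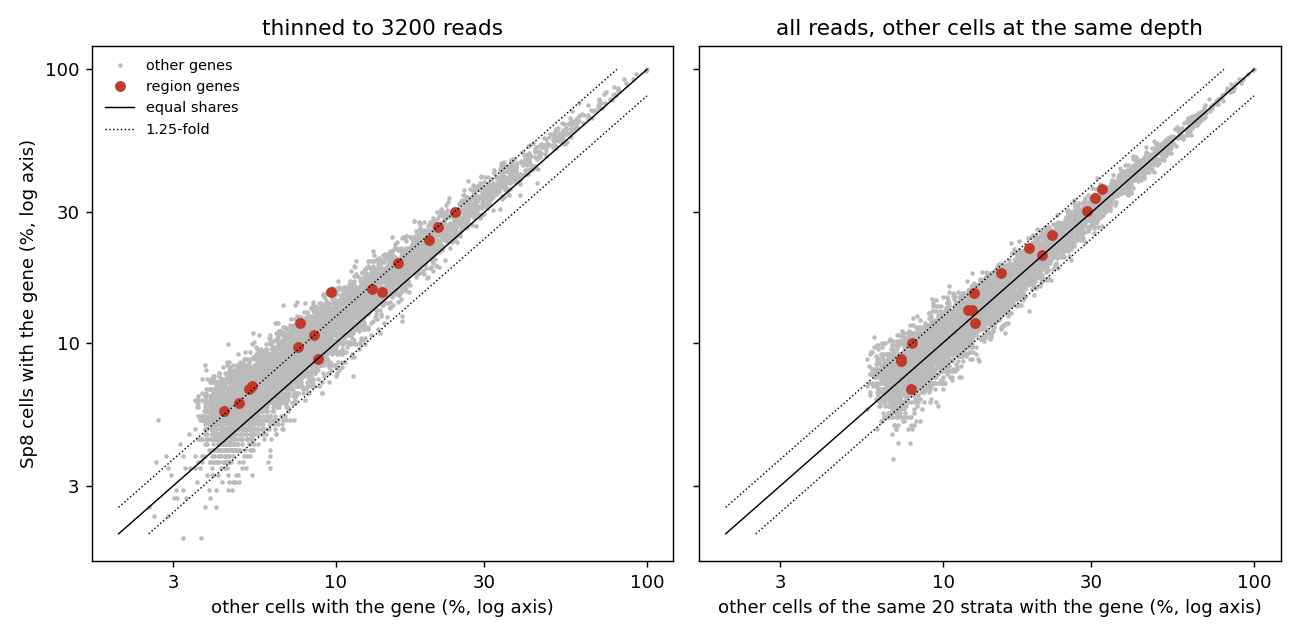
Share of Sp8 cells with each gene (vertical axis, percent, log) against the share of other cells (horizontal axis, percent, log) for 5585 genes, after thinning to 3200 reads (left) and with all reads in other cells of the same 20 strata of reads (right); red points are the 15 region genes, the solid line marks equal shares and the dotted lines the fold limit. The points lie above the line of equal shares on the left, with a median ratio of 1.18, and around it on the right, with a median ratio of 1.02.

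The region genes were captured in *Sp8* cells at rates near, and for most genes slightly above, those of other cells of like depth. Of 82 genes on the lists of anteroposterior and dorsoventral region genes, 40 were in the KN1 table and 15 were read in at least 5% of cells. After thinning, 6 of these 15 were higher and none lower, against 35.4% and 1.38% of all genes, and their median ratio was 1.24. In read strata, *Hoxb5* alone was higher and none was lower, against 5.60% and 3.46% of all genes, with a median ratio of 1.11 and a range of 0.861 to 1.255. Of the 15 ratios, 13 were above 1, against 57.8% of all genes, whose median was 1.02. In strata of genes detected the median was 1.08, and *Hoxb5* was again the single gene past the fold limit. There 12 of the 15 ratios were above 1, against 51.1% of all genes. The mean reads per 10000 had a median *Sp8*-to-other ratio of 1.06 over the 15 region genes, from 0.683 to 1.57, and of 1.01 over all 5585 genes. Extending the lists to the 25 region genes read in at least 1% of cells, the interval of the *Sp8*-cell share held the share of other cells in the same read strata for 24 of them and lay above it for *Hoxb7*.

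The brain region genes came first in anteroposterior order. *Nr2f1* and *Nr2f2*, orphan nuclear receptors that take part in cortical area patterning, were found in 9.67% (interval 7.26 to 12.6%) and 10.6% (8.12 to 13.6%) of thinned *Sp8* cells. The other cells had 7.54% and 8.51%, and the ratios in read strata were 1.07 and 1.10. *Lhx2*, a LIM homeodomain factor of the forebrain and eye field, was found in 2.71% and 3.09% of *Sp8* and other cells (read strata 0.93, with an interval of 0.60 to 1.37), and the midbrain-hindbrain gene *En1* in 2.13% and 1.60% (read strata 1.15, 0.65 to 1.88). *Otx1*, *Otx2*, *Six3*, *Six6*, *Emx1*, *Emx2*, *Dmrt3*, *Rax*, *Hesx1*, *Barhl2*, and *Fezf2*, all of the rostral brain, and *En2*, *Pax8*, *Fgf8*, and *Wnt1* of the midbrain-hindbrain boundary are not listed in the KN1 table. *Pax2*, a paired box gene of that boundary, named after its values were seen, was below the limit of 1% of cells. It was read in 7 *Sp8* cells and 6 other cells (0.176%), a ratio of 6.71 in read strata (2.70 to 13.7), and after thinning in 0 *Sp8* cells and 1 other cell. The other genes of that boundary below 1% of cells had no common direction, with ratios in read strata of 0.41 for *Pax5* (1 *Sp8* cell), 1.42 for *Fgf17* (5 *Sp8* cells), and 1.22 for *Gbx2* (7 *Sp8* cells), and the interval of each included 1.

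*Hox* genes, which mark positions from the hindbrain backward, were read in *Sp8* cells of every class. Among the hindbrain class genes, *Hoxb3* was found in 15.3% of thinned *Sp8* cells (12.3 to 18.7%) and 9.62% of other cells (8.57 to 10.8%). These intervals did not overlap, but in read strata the shares were 18.0% and 15.4% with all reads, and the ratio of 1.17 had an interval of 0.97 to 1.40 that included 1. *Hoxb4* had 6.96% and 5.35% after thinning and 1.17 in read strata. *Hoxa2* (3.29% and 1.74%), *Hoxb2* (1.93% and 1.04%), *Hoxa3* (1.93% and 0.869%), and *Hoxd4* (1.16% and 0.834%) were read in few cells, with 24, 12, 11, and 10 *Sp8* cells in all reads, and their ratios in read strata of 1.45, 1.18, 1.60, and 1.31 had intervals that all included 1. In the annotation *Hoxa3* overlaps *Hoxa4*, *Hoxa5*, and *Hoxa6*, and *Hoxd4* overlaps *Hoxd3*, on the same strand, so that the reads of these genes are uncertain. Antisense gene models overlap *Hoxb2*, *Hoxb3*, *Hoxb5*, *Hoxb6*, *Hoxa3*, *Hoxa5*, *Hoxa7*, *Hoxd4*, and *Hoxd8*. Outside the *Hox* genes, gene models on the other strand overlap *Pax6*, *Olig1*, *Irx3*, *Gli3*, *Lhx2*, *Nr2f1*, and *Nr2f2*. Whether strand was used in counting KN1 reads is not given in the sources used here, so that this doubt holds for all of them.

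In the cervical class, *Hoxa5* was read in 19.5% of thinned *Sp8* cells (16.2 to 23.2%) and 15.8% of other cells (14.5 to 17.2%), a ratio of 1.24, and its mean of 1.81 reads per 10000 in *Sp8* cells stood beside 1.82 in other cells. *Hoxb5* had 6.77% and 5.25%, and its ratio of 1.255 in read strata had an interval of 0.96 to 1.60. *Hoxb6* had 11.8% (9.15 to 14.9%) and 7.68% (6.73 to 8.71%) after thinning, with 1.21 in read strata (0.98 to 1.47). The thinned ratio of *Hoxb6*, 1.54, is to be read against the median of 1.18 over all genes, and the interval in read strata included 1.

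In the thoracic class, the most often captured gene *Hoxa7* was read in 23.8% of thinned *Sp8* cells (20.2 to 27.7%) and 20.0% of other cells (18.5 to 21.5%), with a ratio of 1.05 in read strata and levels of 2.59 and 2.43 reads per 10000. *Hoxb8* had 15.7% and 13.1%, with 1.17 in read strata, and *Hoxb9* had 5.61% and 4.38%. For *Hoxb9* the ratio was 1.28 after thinning, but 0.86 in read strata and 0.81 in strata of genes detected. *Hoxd8* was read in 1.55% and 2.02% of thinned cells. Of the 25 region genes read in at least 1% of cells, *Hoxb7* was the one with an interval above 1 in read strata. It was read in 5.42% of thinned *Sp8* cells (28 of 517, 3.63 to 7.73%) and 2.502% of other cells (1.96 to 3.14%), and in all reads in 36 *Sp8* cells, 6.43%, against 3.78% of other cells in the same read strata, a ratio of 1.70 (1.20 to 2.33). Its level was 0.474 reads per 10000 in *Sp8* cells and 0.267 in other cells. *Hoxb7* was 1 of 25 region genes examined, and its neighbours in the *Hoxb* cluster, *Hoxb6* and *Hoxb8*, had ratios of 1.21 and 1.17. *Hoxa9*, *Hoxa10*, *Hoxc9*, and *Hoxd9* are not listed in the KN1 table.

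**Figure D3:**
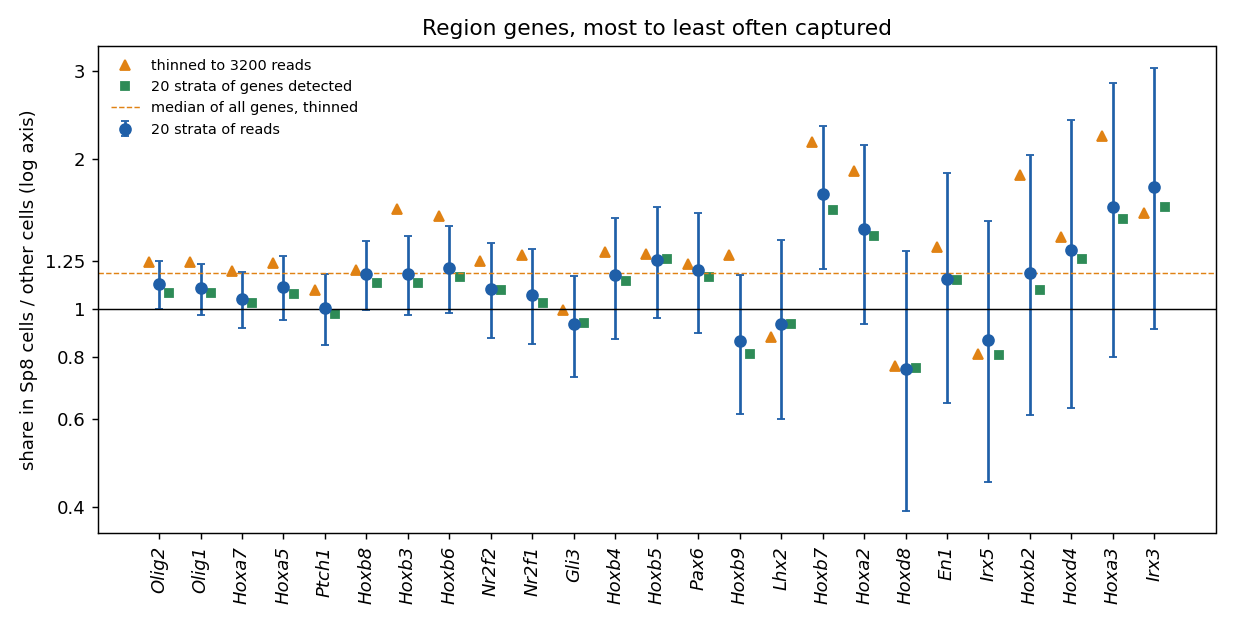
Ratio of the share of Sp8 cells to that of other cells (log axis) for 25 region genes, ordered from the most to the least often captured, after thinning to 3200 reads (triangles), in 20 strata of reads (circles, with the exact 95% interval of the Sp8-cell share), and in 20 strata of genes detected (squares); the dashed line is the median of all genes after thinning, 1.18. The circles of the often captured genes lie between 1.00 and 1.21 from Olig2 to Hoxb6, and the interval of Hoxb7 alone lies above 1.

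The genes of dorsoventral position had ratios in read strata from 0.93 to 1.19 where at least 5% of cells were read. The ventral factors *Olig1* and *Olig2*, of the motor neuron and oligodendrocyte progenitor domain, were the region genes most often captured, with 26.5% (22.7 to 30.5%) and 29.98% (26.1 to 34.1%) of thinned *Sp8* cells against 21.3% (19.8 to 22.9%) and 24.2% (22.6 to 25.8%) of other cells. Their ratios were 1.24 for each gene after thinning, and 1.10 (0.97 to 1.23) and 1.121 (1.00 to 1.248) in read strata. *Ptch1*, the Hedgehog receptor and target, had 15.3% and 14.0%, with 1.00 in read strata. *Gli3*, a Hedgehog-pathway factor of dorsal cells, had 8.70% and 8.76%, with 0.93 in read strata. *Pax6*, of the intermediate neural tube, had 5.996% (4.11 to 8.40%) and 4.86% (4.11 to 5.71%), with 1.19 in read strata (0.89 to 1.56). *Irx3* and *Irx5*, homeobox genes of the same zone, were found in 7 thinned *Sp8* cells each. *Nkx2-2*, *Nkx2-9*, *Nkx6-1*, *Nkx6-2*, *Shh*, and *Gli1* among ventral genes, *Irx1* and *Irx2* among intermediate genes, and *Pax7*, *Msx1*, *Msx2*, *Msx3*, *Olig3*, *Zic1*, *Zic2*, *Zic5*, *Gsx1*, and *Gsx2* among dorsal genes are not listed in the KN1 table.

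*Sp8* was captured together with region genes slightly more often than the depth of the cells predicted. Over 25 pairs of *Sp8* with a region gene, 1702 cells had both genes of a pair, where a cell counts once for each pair. The product of the 2 shares gave 1243, and the sum of products within 20 strata of reads gave 1581, so that the observed number was 1.37 and 1.08 times these values. In read strata 20 of the 25 pairs had more cells than predicted, and in strata of genes detected 19, with a ratio of 1.05. Over the 10817 genes read in at least 1% of cells, the same ratio of sums with *Sp8* was 1.02 in read strata and 1.00 in strata of genes detected, and 55.5% and 50.1% of the genes had more cells than predicted. For *Sp8* with *Hoxa7*, 170 cells were observed (4.28% of KN1 cells, 3.67 to 4.95%), where the product gave 129 and the strata 163. For *Sp8* with *Hoxa5* the numbers were 139 observed, 105 by the product, and 129 by strata. For *Sp8* with *Olig2* they were 204, 152, and 187, and for *Sp8* with *Pax6* they were 49, 33.4, and 42.7. In each of these 4 pairs the strata value lay inside the counting interval of the observed share, and *Hoxb7* was the one gene of the 25 for which it did not, with 36 cells observed and 25.05 by strata, a ratio of 1.44 (1.01 to 1.99). The lowest ratio in strata was 0.80 for *Hoxd8*, with 12 cells observed, and the highest 1.47 for *Hoxa3*, with 11 cells observed. The 25 pairs share the same *Sp8* cells, so that they are not independent of each other.

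*Hox* genes of different classes were found together in single *Sp8* cells. Of the 18 *Hox* genes in the table, an *Sp8* cell had 1.57 on average with all reads and at most 6. Other cells had a mean of 1.04, and other cells weighted to the same read strata had 1.39. No *Hox* gene was read in 23.9% of *Sp8* cells (20.5 to 27.7%), in 39.2% of other cells, and in 30.01% of other cells of the same read strata. At least 4 *Hox* genes were read in 10.5% of *Sp8* cells (59 cells, 8.12 to 13.4%) and 7.72% of other cells of the same strata. In other cells of the same strata of genes detected, a choice added after seeing the data, 29.1% had no *Hox* gene and 8.50% had at least 4. The share of 29.1% lay above the interval of the *Sp8* cells, and that of 8.50% inside it.

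**Figure D4:**
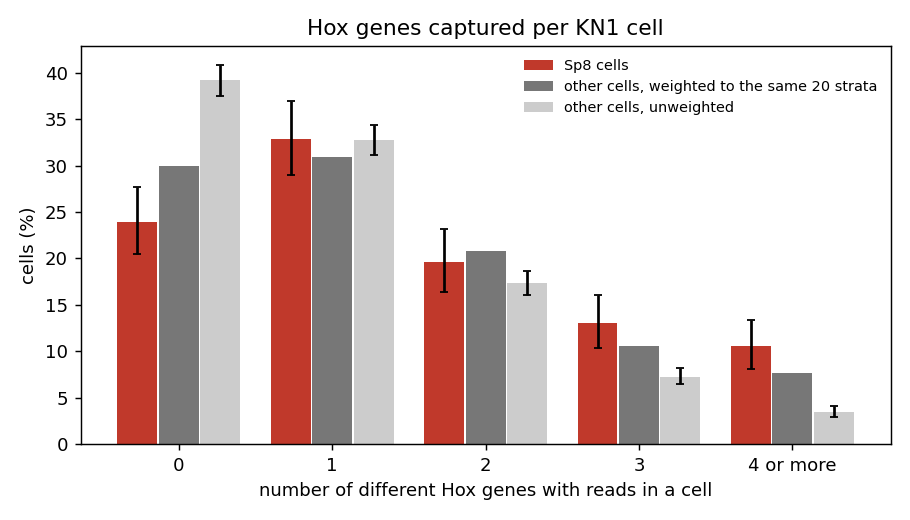
Percent of KN1 cells (vertical axis) with 0, 1, 2, 3, or at least 4 different Hox genes, with all reads, for Sp8 cells (red), other cells weighted to the same 20 strata of reads (dark grey), and other cells without weights (light grey); bars on red and light grey columns are exact 95% intervals. Sp8 cells without a Hox gene were 23.9%, against 30.01% of the weighted and 39.2% of the unweighted other cells.

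A hindbrain class and a thoracic class *Hox* gene were both read in 19.8% of *Sp8* cells (111 cells, 16.6 to 23.4%), against 16.1% of other cells of the same read strata. All 3 classes were read in 61 *Sp8* cells, 10.9% (8.44 to 13.8%), against 7.67%. A *Hox* gene together with *Olig1* or *Olig2* was read in 45.7% (41.5 to 49.9%) against 38.1%. In other cells of the same strata of genes detected, the 3 shares were 16.8%, 8.41%, and 39.7%, of which the first lay inside the interval of the *Sp8* cells, the second just under its lower end, and the third below it. After thinning, the shares with a hindbrain and a thoracic class gene were 12.4% (9.67 to 15.5%) in *Sp8* cells and 7.61% (6.67 to 8.64%) in other cells, where the number of genes per cell differed as given above. With all reads, a hindbrain class gene was read in 32.3% of *Sp8* cells (28.5 to 36.4%) and a cervical class gene in 40.4% (36.3 to 44.6%). A thoracic class gene was read in 51.4% (47.20 to 55.6%), and *Olig1* or *Olig2* in 55.2% (50.95 to 59.35%). Other cells of the same read strata had 27.9%, 35.4%, 47.23%, and 49.9%, below these intervals except for the thoracic class. In strata of genes detected they had 28.8%, 36.4%, 48.2%, and 51.1%, all inside the intervals.

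The Sp family itself was represented by 4 more genes. *Sp1*, the widely expressed founding member, was read in 16.1% of thinned *Sp8* cells (13.0 to 19.5%) and 13.3% of other cells, with 1.11 in read strata. *Sp3*, a second widely expressed member that binds the same GC-rich sites as *Sp1*, had 10.1% (7.60 to 13.0%) and 5.46% (4.65 to 6.35%). Its ratios were 1.84 after thinning, 1.42 in read strata (1.13 to 1.76), and 1.39 in strata of genes detected, and its level was 0.869 and 0.496 reads per 10000. An antisense gene, *Sp3os*, and 3 other gene models overlap *Sp3* in the annotation. *Sp2* was read in 2.51% and 2.26%, and *Sp4*, which lies on chromosome 12 as *Sp8* does, in 2.32% and 1.36% (12 thinned *Sp8* cells; read strata 1.44, 0.84 to 2.28). *Sp5*, *Sp6*, *Sp7*, and *Sp9* are not listed in the table, so that no share can be given for *Sp9*, the closest relative of *Sp8*. The rarest gene listed was read in 7 KN1 cells, and a gene that is not listed may still have had reads in a few cells.

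Markers of neural stem cells were found in both *Sp8* cells and other cells. *Slc1a3*, a glutamate transporter of radial glia and astrocytes, was read in 80.9% (77.2 to 84.2%) of thinned *Sp8* cells and 79.8% of other cells, and the intermediate filament gene *Nes* in 49.9% and 45.3%. *Vim*, another intermediate filament gene, had 46.4% and 36.5%, *Fabp7*, a fatty acid-binding protein of radial glia, 34.6% and 25.6%, *Zeb2* 26.7% and 19.7%, and *Sox2*, the SoxB1 factor of neural progenitors, 13.7% and 11.4%. In read strata these 6 ratios lay between 0.98 and 1.13. The interval of *Fabp7* in read strata, at a ratio of 1.13, had a lower end of 1.01, above 1. Of the 8 progenitor genes read in at least 5% of cells, 4 were higher after thinning, against 35.4% of all genes, and none by read strata, with medians of 1.252 and 1.121. *Sox1*, another SoxB1 gene, was rare in both groups, with 2 *Sp8* cells and 13 other cells.

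Genes of the ganglionic eminences, where *Sp8* marks interneuron precursors, were few. *Dlx1*, *Dlx2*, *Dlx5*, *Dlx6*, and *Prokr2* are not listed in the KN1 table. *Gad1* and *Gad2*, the enzymes of GABA synthesis, were read in 1 and 3 of the 560 *Sp8* cells. *Meis2* (41.2% and 36.5% of thinned cells), *Etv1* (19.5% and 15.2%), and *Tshz1* (6.38% and 4.59%), which are also expressed outside the eminences, had ratios in read strata of 1.05, 1.11, and 1.07. Of these 3 genes, 2 were higher after thinning and none in strata, against 35.4% of all genes after thinning and 5.60% in read strata.

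Most markers of differentiated cells were rare in *Sp8* cells or were read at shares within counting error of those in other cells of like reads, with *Stmn2*, *Dcn*, and the astrocyte-like marker *Gja1*, described after them, as exceptions. Of the 8 neuron-like markers, *Tubb3* was read in 3 *Sp8* cells and 22 other cells, and *Dcx* in 2 and 8. *Stmn2* was read in 7 *Sp8* cells and 14 other cells (0.410%), with a ratio of 2.83 in read strata (1.14 to 5.78). *Elavl3* was read in 6 *Sp8* cells and 15 other cells (0.439%), with a ratio of 2.55 (0.94 to 5.51). *Map2* was read in 70.4% of thinned *Sp8* cells and 67.0% of other cells, *Elavl4* in 10.6% and 8.06%, *Snap25* in 7.16% and 6.85%, and *Rbfox3* in 3.48% and 3.54%. The summed level of the 8 markers was 17.6 reads per 10000 in both groups. *Map2* alone gave 15.8 and 15.5 of it in *Sp8* and other cells, so that the sum says little about the rarer markers. Of the oligodendrocyte precursor-like markers, *Sox10*, *Pdgfra*, *Cspg4*, and *Gpr17* are not listed, and of the astrocyte-like markers *Gfap*, *Aqp4*, and *S100b* are not listed, with a summed level of the other 4 of 27.4 and 28.6 reads per 10000. Most of that sum, 26.5 and 28.0, was from *Slc1a3*. *Pou5f1* of the epiblast was read in 2 *Sp8* cells, and *Nanog*, *Fgf5*, and *Utf1* are not listed. *T*, of the early mesoderm, was read in 2.13% and 1.32% of thinned cells (read strata 1.46, 0.80 to 2.43), and *Tbx6*, *Meox1*, *Msgn1*, and *Mesp1* are not listed. *Tfap2a* of the neural crest was read in 2 *Sp8* cells, and *Foxd3*, *Snai2*, and *Twist1* are not listed. Of the connective tissue-like genes, *Col3a1* was read in 6 *Sp8* cells and *Dcn* in 0 of 560, which allows a share of cells with a read of up to 0.536% (3 counts of the total), and in 17 other cells, while *Col1a1*, *Col1a2*, *Lum*, and *Postn* are not listed.

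*Gja1*, which encodes connexin 43, the gap junction protein of radial glia and astrocytes, was captured more often in *Sp8* cells than the median gene by each of the 3 ways. It was read in 10.8% of thinned *Sp8* cells (56 of 517, 8.29 to 13.8%) and 5.42% of other cells (4.62 to 6.31%). The ratio was 2.00 after thinning, 1.57 in read strata (1.27 to 1.92), and 1.51 in strata of genes detected, and the level was 0.795 and 0.502 reads per 10000. The thinned intervals of the 2 groups did not overlap, which also held for other genes after thinning, such as *Top2a* and *Vim*. The other 3 astrocyte-like markers in the table had ratios in read strata of 0.98 for *Slc1a3*, 0.88 for *Slc1a2* (9 *Sp8* cells), and 0.37 for *Aldh1l1* (2 *Sp8* cells), so that *Gja1* was the one member above 1.

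Genes of FGF signalling, which the growth factors of the medium engage, had ratios near those of all genes in strata, and for *Dusp6* the interval in read strata lay above 1. *Etv5*, an ETS factor that FGF signals induce, was read in 66.2% of thinned *Sp8* cells and 56.7% of other cells, and *Dusp6*, a phosphatase that limits ERK activity, in 38.3% (34.1 to 42.6%) and 29.1% (27.5 to 30.8%). Their ratios in read strata were 1.05 and 1.16 (1.05 to 1.27 for *Dusp6*). The receptors *Fgfr1* and *Fgfr2* had 24.6% and 20.2%, and 16.1% and 16.5%, with 1.08 and 1.03 in read strata. Of the 10 genes read in at least 5% of cells, 3 (*Dusp6* and the feedback inhibitors *Spry1* and *Spry2*, with ratios of 1.32, 1.49, and 1.40) were higher after thinning, against 35.4% of all genes, and none in strata, although 9 of the 10 ratios in read strata were above 1, with a median of 1.06, against 57.8% and 1.02 over all genes. In strata of genes detected 7 of the 10 were above 1, with a median of 1.03, against 51.1% and 1.00. *Fgf8* and *Fgf15*, the ligands near which *Sp8* is found in the brain, are not listed.

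Wnt target and feedback genes had no common direction. *Ccnd1*, a cyclin of G1, was read in 23.6% and 22.8% of thinned *Sp8* and other cells, *Znrf3*, a feedback ubiquitin ligase, in 22.8% and 17.6%, and *Lgr5*, an R-spondin receptor, in 6.96% and 8.37%. Their ratios in read strata were 0.98, 1.10, and 0.96. *Axin2*, a feedback inhibitor, was read in 13 thinned *Sp8* cells, 2.51% and 1.60% (read strata 1.62, 0.97 to 2.54). *Sp5*, *Notum*, and *Dkk1* are not listed. The receptors *Notch1* and *Notch2* had 23.8% and 20.7%, and 10.8% and 9.17% of thinned cells, and the Notch targets *Hes1* and *Hes5* had 11.4% and 9.38%, and 6.96% and 6.29%. Their ratios in read strata were 0.93, 0.99, 1.04, and 0.88, and none of these 4 genes was past the fold limit after thinning or in strata, against 35.4% of all genes higher after thinning and 5.60% in read strata.

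The genes of dividing cells had ratios near that of all genes once the strata were used. *Top2a*, the topoisomerase of mitotic chromosomes, was read in 45.5% of thinned *Sp8* cells (41.1 to 49.9%) and 34.5% of other cells, with 1.32 after thinning and 1.02 in read strata. With all reads its shares were 47.9% and 34.6%. *Top2a* capture followed depth too. Of the 4 equal parts of cells by reads, it was read in 15.5% of that with the fewest reads and 65.4% of that with the most. Strata of reads thus also brought together cells of like *Top2a* capture, and depth and division cannot be told apart here. *Mki67*, the proliferation marker, had 31.3% (27.4 to 35.5%) and 29.2%, with 0.88 in read strata (0.78 to 0.99), an interval whose upper end lay below 1. *Ube2c*, a ubiquitin-conjugating enzyme of mitotic exit, lay on the other side, with 19.9% and 13.1% after thinning and 1.17 in read strata (1.01 to 1.35). *Cenpe* and *Cenpf*, of the kinetochore, had 33.7% and 26.1%, and 30.8% and 24.0%, with 1.06 and 1.04. Of the 12 G2-M genes compared, 9 were higher after thinning and none in read strata, against 35.4% and 5.60% of all genes, and the medians were 1.34 and 1.04, against 1.18 and 1.02 over all genes. The S-phase genes *Rrm2*, *Tyms*, *Mcm2*, and *Mcm3* had ratios in read strata of 0.85, 1.07, 0.86, and 1.124, and of the 7 compared 4 were higher after thinning and none past the threshold in read strata. In strata of genes detected, 3 of the 7 S-phase genes were lower, against 4.48% of all genes, with a median of 0.98. They were *Pcna* (0.765), *Rrm2* (0.795), and *Mcm2* (0.7999), the last 2 of them at the limit of 0.8. None of the 3 was past it in read strata, with 0.82, 0.85, and 0.86.

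Immediate early and stress genes, which can mark handling of the cells, had a summed level of 4.19 and 4.11 reads per 10000 in *Sp8* and other cells, most of it from *Jun* and *Egr1*. Of the rarer members, *Fos* (13 *Sp8* cells) had 0.0616 and 0.190 reads per 10000, *Junb* (11 *Sp8* cells) 0.0458 and 0.135, and *Atf3* (6 *Sp8* cells) 0.0193 and 0.0457. Their ratios of shares in read strata were 0.77, 0.79, and 1.10, with intervals that all included 1. *Egr1* was read in 17.2% and 14.3% of thinned cells, *Jun* in 17.8% and 14.4%, *Fosb* in 3.87% and 4.204%, and *Dnajb1* in 6.38% and 3.61%, with 1.07, 1.09, 0.97, and 1.119 in read strata. The level of *Malat1* had a median of 274 reads per 10000 in *Sp8* cells and 272 in other cells, with quartiles of 138 and 442 and of 143 and 443.

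For a pair of long noncoding RNAs the intervals of the groups did not overlap. *Xist*, the RNA of the inactive X chromosome, was read in 86.3% of thinned *Sp8* cells (83.0 to 89.1%) and 78.1% of other cells (76.6 to 79.6%), with 1.05 in read strata (1.02 to 1.08) and a level of 28.3 and 23.8 reads per 10000. *Kcnq1ot1*, the imprinted antisense RNA of the *Kcnq1* locus on chromosome 7, was read in 0.967% of thinned *Sp8* cells (5 of 517, 0.315 to 2.24%) and 4.24% of other cells (3.53 to 5.04%). With all reads it was found in 7 of 560 *Sp8* cells, against 5.04% of other cells in the same read strata, a ratio of 0.25 (0.10 to 0.51), and the ratio was 0.23 after thinning and 0.26 in strata of genes detected. Its level was 0.233 reads per 10000 in *Sp8* cells and 1.49 in other cells. *Kcnq1ot1* was read in 3.75% of KN1 cells, below the limit of 5%, and is thus not among the 5585 genes of the background shares. With a limit of 1% of cells, 8.22% of genes were lower after thinning, against 1.38% with the limit of 5%. In the annotation *Kcnq1* overlaps *Kcnq1ot1*, and *Tsix* overlaps *Xist*, on the other strand. Whether strand was used in counting KN1 reads is not given, so that the reads of both RNAs are uncertain. Seen from the other side, 4.70% of the 149 cells with *Kcnq1ot1* had an *Sp8* read, and 14.5% of the 3826 cells without it. The cells with *Kcnq1ot1* were not less deeply read, with a median of 6520 reads and 918 genes against 5812 and 829.5, and their median *Malat1* level was 439 against 265 reads per 10000. *Neat1*, another nuclear RNA, was read in 0.774% and 0.903% of thinned cells.

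Among all 2839 genes read in at least 10% of KN1 cells, 22 were higher and 8 lower by all 3 ways of setting the depth. The median ratio of 1.18 after thinning favoured higher calls in this count as well. The 12 with the largest ratios after thinning were *Ndufb5*, *Jtb*, *Iars*, *Uri1*, *Cep120*, *Hs2st1*, *Mpzl1*, *Dnajb6*, *Cdk17*, *Mrpl24*, *Slc27a1*, and *Fam155a*. *Ndufb5*, a subunit of mitochondrial complex I, was read in 19.1% of thinned *Sp8* cells (99 of 517, 15.8 to 22.8%) and 11.5% of other cells (10.3 to 12.7%), with ratios of 1.67 after thinning and 1.40 in read strata (1.19 to 1.62). *Jtb*, a transmembrane protein gene, had 14.9% and 9.10%, and *Iars*, the cytosolic isoleucyl-tRNA synthetase, 12.4% and 7.71%. *Dnajb6*, a chaperone of the Hsp40 family, had the highest ratio of the 12 in read strata, 1.46 (1.21 to 1.74), with 13.0% and 8.51% after thinning. *Cep120*, a centriole protein gene, had 12.2% and 7.71%, and *Fam155a*, a subunit gene of the NALCN channel complex, 20.5% and 13.7%. The others were *Uri1*, a prefoldin-like chaperone (14.7% and 9.17%), *Hs2st1*, a heparan sulfate sulfotransferase (15.7% and 10.1%), *Mpzl1*, a cell surface glycoprotein (15.1% and 9.90%), the kinase *Cdk17* (19.9% and 13.2%), the mitochondrial ribosomal protein *Mrpl24* (13.3% and 8.93%), and the fatty acid transporter *Slc27a1* (11.99% and 8.03%). In the annotation *Mrpl47*, *Elk3*, and *Rrnad1* overlap *Ndufb5*, *Cdk17*, and *Mrpl24* on the other strand, and gene models overlap several of the other genes, so that their reads are uncertain.

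The 8 genes that were lower by all 3 ways were *Rp9*, *Wdfy2*, *D5Ertd579e*, *Smarca2*, *Hdac4*, *Iqgap1*, *Ddx18*, and *Prkag2*. *Rp9*, a gene named for retinitis pigmentosa, was read in 7.54% of thinned *Sp8* cells (39 of 517, 5.42 to 10.2%) and 11.4% of other cells (10.2 to 12.6%), with ratios of 0.66 after thinning and 0.74 in read strata (0.58 to 0.92). *Smarca2*, an ATPase of the BAF chromatin remodelling complex, had 12.6% and 16.3%, and *Hdac4*, a class IIa histone deacetylase, 7.93% and 10.3%. *Ddx18*, an RNA helicase, had 10.8% and 13.9% and *Iqgap1*, a cytoskeletal scaffold, 8.12% and 10.5%, and these 2 genes had the lowest ratio in read strata, 0.69 for each. *Wdfy2* had 6.58% and 9.00%, *D5Ertd579e* 7.74% and 10.0%, and *Prkag2*, a regulatory subunit of AMP kinase, 8.51% and 10.7%. Some of the 8 calls changed with the setting. By the exact probability in place of 1 draw, *Rp9*, *Wdfy2*, *Iqgap1*, and *Ddx18* were past the fold limit and the other 4 were not. With at least 2 *Sp8* reads 3 of the 8 were past it, and without the cells of a shared index 2 were. At 2000 reads 5 were, at 5000 reads 4, and without thinning 0. Without the 5% of cells with most reads 6 were, and without the 6% with the highest doublet scores 5. The 12 higher genes were all past it under these alternatives, except for *Cdk17* without the cells with most reads (1.24). These genes were picked as the extremes of 2839 ratios, and the intervals of single genes do not take that into account.

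**Figure D5:**
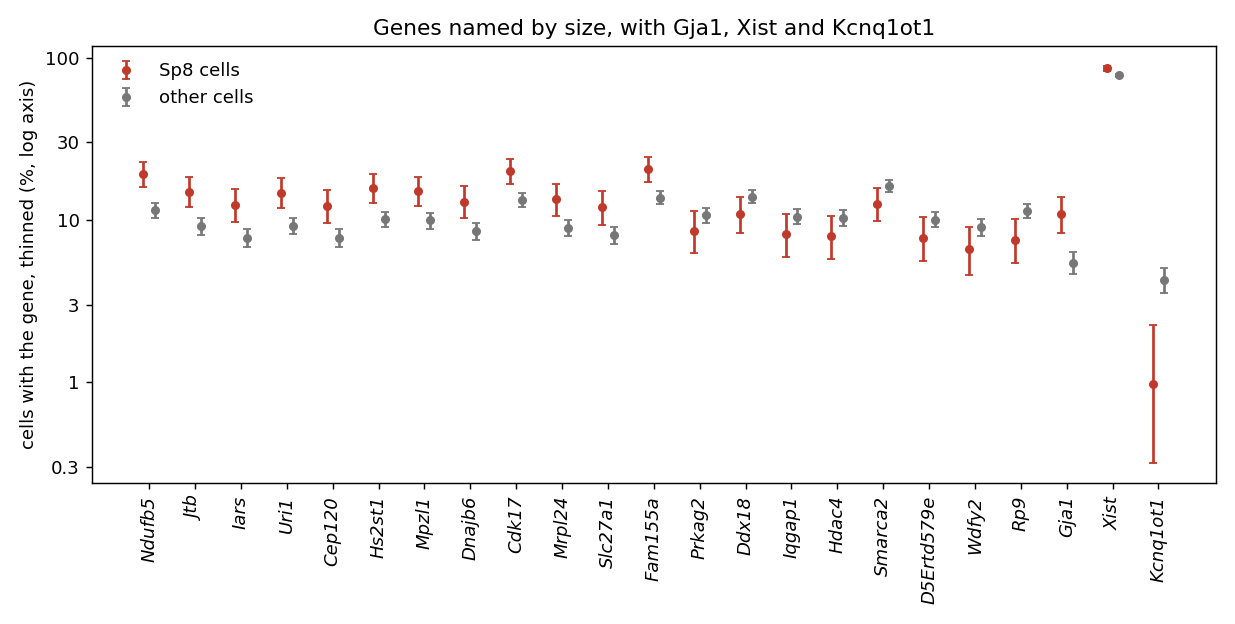
Percent of thinned cells with each gene (log axis) in 517 Sp8 cells (red) and 2878 other cells (grey) for the 12 higher and 8 lower genes and for Gja1, Xist, and Kcnq1ot1; bars are exact 95% intervals. Ndufb5 has 19.1% and 11.5% at the left end, and Kcnq1ot1 has 0.967% and 4.24% at the right end.

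The shares were also compared by the number of *Sp8* reads in a cell. After thinning, *Hoxa5* was read in 15.8% of 2878 cells without *Sp8*, 17.4% of 92 cells with 1 *Sp8* read (10.3 to 26.7%), and 20.0% of 425 cells with 2 or more (16.3 to 24.1%). *Hoxa7* was read in 20.0%, 26.1%, and 23.3%, *Hoxb3* in 9.62%, 16.3%, and 15.1%, and *Olig1* in 21.3%, 32.6%, and 25.2%. *Gja1* was read in 5.42%, 8.70%, and 11.3%, and *Kcnq1ot1* in 4.24%, 1.09%, and 0.941%. For each of these 6 genes the intervals of the cells with 1 read and with 2 or more reads overlapped.

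The neighbours of *Sp8* cells were little richer in *Sp8* than other cells of like depth. Each KN1 cell was placed by 30 principal components of 2000 variable genes, without *Sp8* and the region genes, and its 30 nearest cells were listed. Of the neighbours of *Sp8* cells, 16.0% were *Sp8* cells, which was 1.06 times the number given by the *Sp8* share of the neighbours' own depth group. For the G2-M genes the same ratio was 1.34 for *Mki67*, 1.29 for *Top2a*, and 1.29 for *Hmgb2*, and for region genes it was 1.03 for *Hoxa5*, 1.01 for *Hoxa7*, and 1.119 for *Pax6*. *Malat1*, read in almost all cells, had 1.00. The value of *Sp8* thus lay between those of *Hoxa7* and *Pax6*. Genes of the cell cycle were not taken out of the genes that placed the cells, and *Mki67* was among them, so that their ratios cannot be compared with that of *Sp8*.

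When the 197 cells whose index also occurred in another line were left out, a choice made after seeing the data, 2006 genes were higher and 92 lower after thinning, against 1977 and 77 with them.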

How the data were processed

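KN1 cells in a growing phase were dissociated, stored in a fixative at 4°C, and made into 1 BD Rhapsody whole transcriptome library. The authors deposited natural log (ln) values, ln(1 + 10000 × reads/total), of 3975 KN1 cells without ribosomal protein and mitochondrial genes. Seurat 4.3.0 and the mm10 (GRCm38) build are named in the submitters' processing notes. For XN4, XN1, and CN4 the authors also deposited read counts for each gene and cell, not of molecular identifiers, written by the BD Rhapsody WTA pipeline (version 1.12.1). The settings used for KN1 are not given in the sources used here. The ln values were turned back into whole reads (100% whole within a tolerance of 0.01). The KN1 table held 27563145 reads and 14672 genes, a median of 5862 reads per cell, and a median of 833 genes per cell.

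Capture of a gene meant 1 or more reads in the cell. After removal of the *Sp8* reads, cells were thinned once to 3200 reads, and cells with fewer reads (43 *Sp8* cells and 537 other cells) were left out. Genes in at least 5% of cells were compared, a ratio of shares of at most 0.8 or at least its inverse being counted. Expected shares came from 20 strata of reads or of genes detected. Named genes were the region and Sp family genes in at least 1% of cells, the genes (at most 12 in each direction) with the largest and smallest ratios among genes in at least 10% of cells and past that limit by all 3 ways, and the 4 most often captured genes of every other list. *Gad1*, *Gad2*, *Tubb3*, *Dcx*, *Stmn2*, *Elavl3*, *Sox1*, *Sox2*, *Ube2c*, *Pcna*, *Spry1*, *Spry2*, *Pax2*, *Pax5*, *Fgf17*, *Gbx2*, *Fos*, *Junb*, and *Atf3*, and the gene with a ratio past a limit where a list has only 1, were added after their values were seen. The members and the lists were chosen with earlier results of these data known, and some listed genes are not reported here. Coordinates and overlaps are from GENCODE M21.

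Scrublet (scanpy 1.11.5), given an expected rate of 6%, called 2 of the 3975 cells, so the call did not work, and no doublets were removed. Leaving out the 238 cells with the highest scores was an alternative. Other alternatives were other depths, an exact probability in place of 1 draw, at least 2 *Sp8* reads, no thinning, strata, omission of the most deeply read 5% of cells, and a 1% gene filter. Python 3.11.15, NumPy 2.4.6, SciPy 1.17.1, and scikit-learn 1.9.0 were used. The scripts were first run on KN1 cells with known changes put in and a made-up marker that depended on depth only. The pass check covered the ways with strata and did not cover thinning. That marker was drawn within groups of like genes detected, so that ratios near 1 for unchanged genes in strata of genes detected were built in.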

Additional observations from a re-analysis of the deposited data

How the results depend on the processing

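The number of genes past the fold limit depended on how depth was set. Against 1977 higher genes after thinning to 3200 reads, there were 4135 without thinning, 313 in read strata, and 215 in strata of genes detected. Against 77 lower genes, there were 132 at 2000 reads, 41 by the exact probability, 3 without thinning, 193 in read strata, 250 in strata of genes detected, 219 without the 5% of cells with most reads, and 145 without the 6% with the highest doublet scores. With the filter on genes at 1% in place of 5% of cells, at the same depth, 4258 of 10817 genes were higher (39.4%, against 35.4% of 5585) and 889 lower (8.22%, against 1.38%). Leaving out cells with a shared index was chosen after seeing the data. The median log2 ratio of the region genes, 0.31, stayed above 0 under all 9 alternatives, from 0.11 to 0.50, and that of the G2-M genes, 0.42, was 0.055 in read strata and 0.028 in strata of genes detected. The log2 median over all genes was 0.24 after thinning, 0.44 without, 0.03 in read strata, and 0.00 in strata of genes detected.

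The *Sp8* share of thinned cells, 12.5%, was 9.98% at 2000 reads, 15.8% at 5000 reads, and 14.1% in all reads. The co-capture ratio stayed between 1.05 and 1.11 with 5 or 50 strata, strata of genes detected, or at least 2 reads. The neighbour ratio of *Sp8* was 1.14 without depth groups. Among named genes past the fold limit after thinning, the ratios that crossed 1 were those of *Wdfy2* without thinning (1.03), *Prkag2* (1.03) and *Tfap2a* (1.69) with at least 2 *Sp8* reads, *En1* (0.81) and *Irx3* (1.00) without the cells with most reads, *Hoxb9* at 2000 reads (0.79), in read strata (0.86), and in strata of genes detected (0.81), *Hoxd8* (1.13), *Pou5f1* (1.00), and *Tfap2a* (1.20) without the highest doublet scores, *Pou5f1* and *Tfap2a* without thinning (1.36 each), and *Tfap2a* at 5000 reads (1.80) and by the exact probability (1.31). Genes within that limit also crossed 1 and are not listed. The cause was not tested; *Tfap2a* and *Pou5f1* were read in 2 *Sp8* cells each. *Sp8* cells of other lines, and the alternative of their normalized cells, could not be compared, since *Sp8* is not listed there. Depth limits every share, since a transcript can be present and not be read.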
